A study of Homo sapiens with 2 samples.

Results

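Chemokine genes encode small secreted proteins that draw white blood cells along a gradient, and 45 protein-coding genes carry a symbol of the family (CXCL, CCL, XCL or CX3CL and a number) among 20056 protein-coding genes of the RefSeq table. Of these, 43 had a place on a main chromosome and were set against 19866 such genes in all. CCL3L1 and CCL4L1, near-copies of CCL3 and CCL4, were listed with scaffold positions only and were not analysed here. RUNX1 binding was measured by chromatin immunoprecipitation and sequencing (ChIPseq) in MCF10A, a non-tumorigenic line of human mammary epithelial cells. Both libraries came from RUNX1-deleted cells that carried a doxycycline-inducible lentiviral RUNX1 and received 1 µg/ml doxycycline for 24 hours. There was 1 library made with an anti-RUNX1 antibody, with 80338845 tags kept, and 1 library of input DNA, with 87410774. Binding was therefore seen at an induced level of RUNX1, in cells without their own copy. No condition was compared and no value has a replicate, so counts are descriptions, and intervals cover counting error only.

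RUNX1 binds DNA with its partner CBFB and is best known as a regulator of blood cell genes. Chemokines fall into families by the spacing of their first cysteines, and each acts through a few receptors on the target cell. The CXC ligands of CXCR2 attract neutrophils, those of CXCR3 attract activated T cells, and many CC ligands attract monocytes, eosinophils or lymphocytes. Most genes of both large families sit in tandem arrays on chromosomes 4 and 17 that arose by duplication. Epithelial cells make several of them, among them CXCL8, CXCL1 and CCL20, when inflammation starts.

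A RUNX1 peak summit, the highest point of a region enriched in the ChIP library, lay inside or within 5 kb of 7 of the 43 genes, or 16.3%, whereas the same held for 24.9% of all protein-coding genes. The 7 genes were CXCL10, CXCL6, CCL20, CX3CL1, CCL24, CCL26 and CCL3L3. Chemokine genes were short, with a median length of 3.23 kb against 24.5 kb, and short genes had fewer peaks. When all protein-coding genes were weighted to the lengths of the 43, in 10 groups of equal size by gene length, 5.48 genes, or 12.7%, would have had a summit. The count thus lay below the plain background and close to the background at equal length, and was not tested. Within 50 kb the count was 20 genes, or 46.5%, beside 52.4% of all genes and a length-weighted 19.3 genes. Inside the gene body it was 3, or 6.98%, beside 18.9% of all genes and a length-weighted 2.35. The plot of the share by distance shows the chemokine genes near the length-weighted line at 0 to 2 kb and at 50 kb. At 20 kb they lay above it, with 15 genes against 11.0. Several of the 15 share a summit with a neighbor, such as CXCL9, CXCL10 and CXCL11, so they are not 15 separate observations. The difference at 20 kb was not tested.

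**Figure D1:**
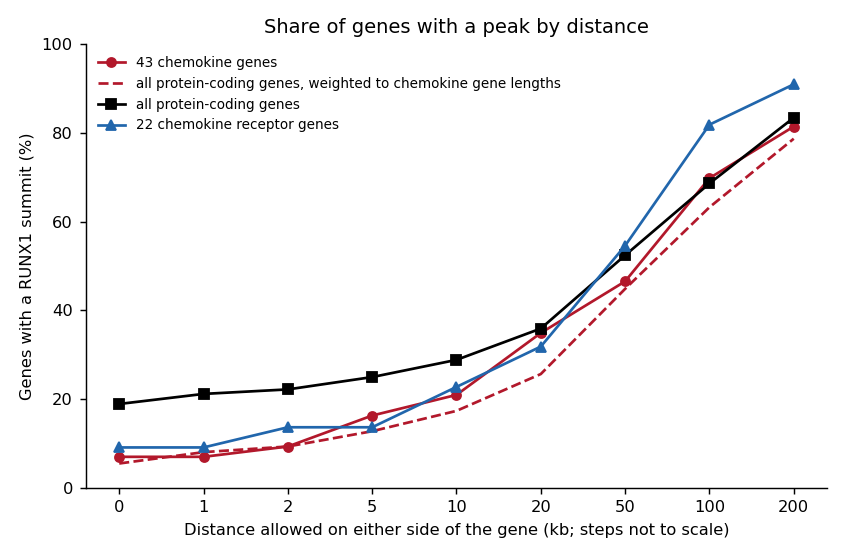
Percent of genes with a RUNX1 peak summit inside them or within the distance on the horizontal axis (kb), for 43 chemokine genes (red points), 22 chemokine receptor genes (blue triangles), 19866 protein-coding genes (black squares) and the same genes weighted to the lengths of the chemokine genes (dashed line). The chemokine genes lie at 16.3% for 5 kb and 46.5% for 50 kb, under the black line at both and above the dashed line at both.

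All 3 interferon-induced ligands of CXCR3 had a peak within 50 kb, as did 52.4% of all protein-coding genes, and the 3 lie side by side within 34.8 kb. CXCL10, which recruits T cells and natural killer cells, held a summit inside its body on chromosome 4, in a peak at 76022271 to 76022371 (positions are in hg38). Its pileup, the number of extended tags over the summit, was 22 (exact 95% Poisson interval 13.8 to 33.3). It was enriched 7.18-fold over the local background, at a −log10 q (the adjusted p of the peak caller) of 11.2 that 18.4% of the 13591 peaks exceeded. The summit lay 1167 bp downstream of the start of CXCL10 and also inside ART3, a gene of the ADP-ribosyltransferase family that spans this place. A second peak stood at 76051557 to 76051744 inside ART3, 15.6 kb from CXCL11, with 21 tags (13.0 to 32.1) and a 6.87-fold enrichment. CXCL11 and CXCL9 had no summit within 5 kb. The CXCL10 summit was 11.4 kb from CXCL11 and 14.8 kb from CXCL9, so the 3 genes shared the same 2 peaks within 50 kb.

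CCL20, the ligand of CCR6 that attracts dendritic cells and Th17 cells to epithelia, had 2 peaks within 5 kb on chromosome 2. Both lay past its end, with summits 1158 and 1445 bp away and 287 bp apart. The nearer had a pileup of 19 tags (11.4 to 29.7) and a fold enrichment of 5.80. The other had 22 tags (13.8 to 33.3) and 4.11-fold. Its input level, the local background recovered from the fold, was 2.09 times the genome background, the tag number expected if tags were spread evenly. Merging peaks within 1 kb made the 2 peaks 1. A taller peak of 28 tags (18.6 to 40.5, 6.20-fold) lay at 227822457 to 227822680, just outside the limit with its summit 5032 bp from the gene. CCL20 thus had a run of 3 summits past its end, and the nearest was 4872 bp downstream of its start.

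CX3CL1, a chemokine on a mucin-like stalk that is held in the membrane of endothelial and epithelial cells, had 2 summits inside its body on chromosome 16. They were 540 bp apart and became 1 when peaks within 1 kb were merged. The taller, in the peak at 57379954 to 57380042, had 18 tags (10.7 to 28.4) and a fold enrichment of 5.93. The weaker, at 57379467 to 57379541, had 12 tags (6.20 to 21.0), a fold enrichment of 4.06 and a −log10 q of 2.85, and 87.8% of all peaks had a higher one. The same pair was the nearest to both ligands of CCR4, which attract Th2 and regulatory T cells, at 13.3 kb from CCL22 and 16.1 kb from CCL17.

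Each gene was put under 1 receptor only, although many chemokines bind several. Of the 3 placed under CCR3, whose ligands attract eosinophils, CCL26 and CCL24 on chromosome 7 had a peak within 5 kb. CCL11 on chromosome 17 had none. The share over all protein-coding genes was 24.9%, and a group of 3 is too small to compare with it. CCL26 held a summit inside its body with 15 tags (8.40 to 24.7) and a 4.997-fold enrichment, 13048 bp downstream of its listed start. CCL24 had one 4446 bp upstream of its start, with 17 tags (9.90 to 27.2) and 5.62-fold. A taller peak followed at 75829684 to 75829939, 6439 bp from CCL24, with 30 tags (20.2 to 42.8) over an input level 2.09 times the genome background. CCL26 also had 3 peaks 34305 to 41454 bp away, all inside HIP1, which encodes a clathrin adaptor. CCL11 was the gene farthest from any summit, at 773.9 kb.

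CXCL6, which attracts neutrophils, had a summit 3978 bp upstream of its start, in the peak at 73832667 to 73832755 of chromosome 4. It had 16 tags (9.15 to 25.98) and a fold enrichment of 4.52, and 64.9% of all peaks had a higher −log10 q. CCL3L3, which attracts monocytes and T cells, had one 2337 bp past its end, with 21 tags (13.0 to 32.1) and 5.86-fold, at 36192391 to 36192598 of chromosome 17. CCL3L3 and CCL4L2 are near-copies of CCL3 and CCL4 in a region that differs in copy number between people. The handling of tags that match several places is not given in the sources used here, so the place of this peak is uncertain.

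These 9 peaks were of ordinary height. Their pileups ran from 12 to 22 tags with a median of 18, which was also the median of all peaks. Their fold enrichments ran from 4.06 to 7.18, with a median of 5.62 beside 5.06. The input level was at the genome background in 5 of the 9 and at most 2.09 times it. This level is a local background that did not fall below the genome background at these peaks, so the input itself may be lower. The strongest of the 26 peaks within 50 kb was the one near CXCL13, the ligand of CXCR5 that draws B cells into follicles. It lay 6.87 kb past the end of the gene, at 77618608 to 77618841 of chromosome 4, with 37 tags (26.1 to 51.0) and an 11.7-fold enrichment. Only 2.24% of all peaks had a higher −log10 q than its 27.2. Its lower bound was above the median of 18 tags, as it was for the other 4 peaks of 28 or 30 tags. Those 4 stood over a raised input level, 1.67 to 2.92 times the genome background, and their folds were 3.90 to 6.20.

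**Figure D2:**
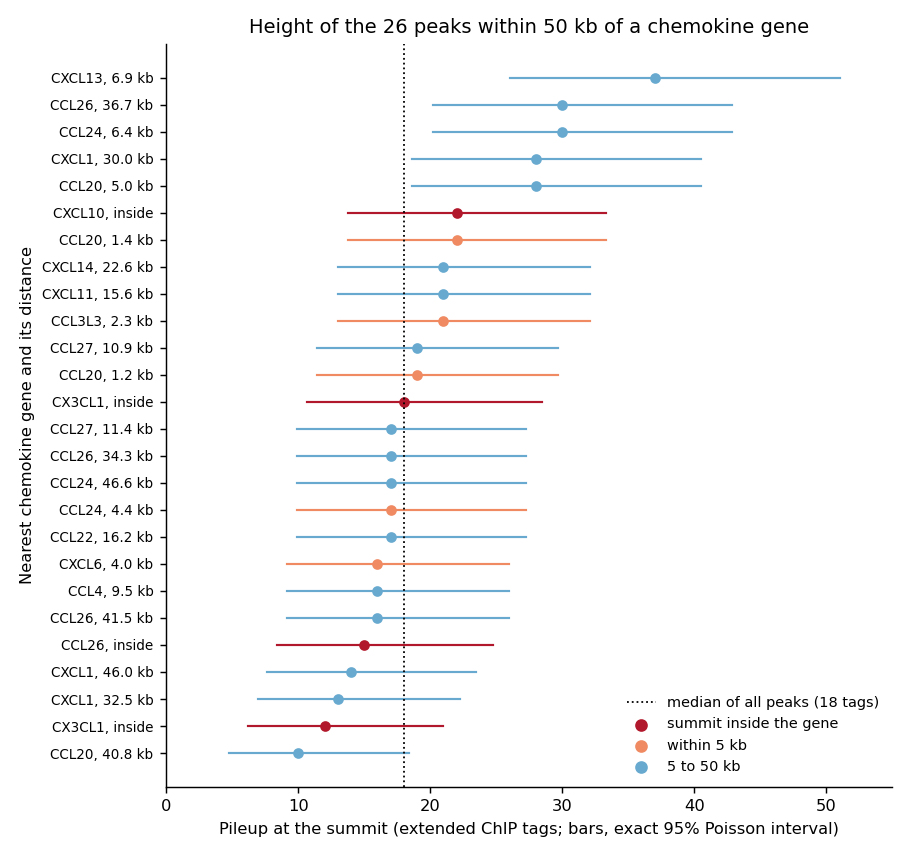
Pileup at the summit (extended ChIP tags) of the 26 peaks within 50 kb of a chemokine gene, with exact 95% Poisson intervals as bars, colored by distance from the nearest chemokine gene. The dotted line is the median of all peaks, 18 tags, and the 5 peaks at 28 to 37 tags have intervals wholly above it, all of them 5 to 50 kb from a gene. Pileup does not allow for the local background, which was raised at the peaks of 28 and 30 tags.

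No chemokine gene with a listed start had a summit within 1 kb of it. Starts were listed for 31 of the 43 genes, in the RefSeq promoter table of GRCh38.p14, and the count was 0 of 31, beside 4.87% of 15843 protein-coding genes with a listed start. At so low a share, 31 genes are too few to tell a count of 0 from the background. CXCL10 came closest, at the 1167 bp given above. The table had no entry for CX3CL1, XCL1, CCL21, CCL17, CXCL16, CCL2, CCL11, CCL5, CCL16, CCL14, CCL4 and CCL4L2. The 250 bases before the start of CXCL10, CXCL6, CCL20 and CCL24 are shown because these genes have a peak within 5 kb. The core of the RUNX motif, TGTGGT or TGCGGT on either strand, was searched over 250 bases before to 50 bases after each start. None of the 4 holds it, so no letters are in capitals.
CXCL10 upstream of its start, chr4:76023498-76023747, minus strand: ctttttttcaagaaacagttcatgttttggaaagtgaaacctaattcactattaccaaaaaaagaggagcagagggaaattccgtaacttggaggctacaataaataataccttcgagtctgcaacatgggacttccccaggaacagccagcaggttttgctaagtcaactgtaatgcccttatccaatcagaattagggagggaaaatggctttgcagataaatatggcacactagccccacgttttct
CXCL6 upstream of its start, chr4:73836428-73836677, plus strand: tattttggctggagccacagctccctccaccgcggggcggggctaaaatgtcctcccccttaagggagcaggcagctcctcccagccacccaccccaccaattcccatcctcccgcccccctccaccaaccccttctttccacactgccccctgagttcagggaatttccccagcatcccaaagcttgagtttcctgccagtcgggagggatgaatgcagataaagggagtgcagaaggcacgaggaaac
CCL20 upstream of its start, chr2:227813592-227813841, plus strand: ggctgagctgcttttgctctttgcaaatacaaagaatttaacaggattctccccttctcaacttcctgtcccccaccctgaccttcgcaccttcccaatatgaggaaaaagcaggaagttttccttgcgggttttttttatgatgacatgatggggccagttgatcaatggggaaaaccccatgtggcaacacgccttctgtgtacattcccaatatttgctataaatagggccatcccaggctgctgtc
CCL24 upstream of its start, chr7:75823373-75823622, minus strand: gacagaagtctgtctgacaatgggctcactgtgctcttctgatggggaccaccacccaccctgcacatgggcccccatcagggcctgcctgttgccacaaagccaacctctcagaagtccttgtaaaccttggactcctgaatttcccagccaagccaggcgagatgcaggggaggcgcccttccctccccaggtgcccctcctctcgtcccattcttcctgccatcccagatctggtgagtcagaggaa

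A match was found at 12 of 36 starts of chemokine genes, or 33.3%, beside 19.0% of 22199 starts of protein-coding genes. By gene it was 10 of 31, or 32.3%, beside 23.6%. Among genes with a peak within 5 kb, 3 of 6 had one, and among the others 7 of 25, groups too small to compare. The 3 were CCL3L3, CCL26 and CCL24, whose starts with the match were 4226, 13048 and 14012 bp from the nearest summit. Of the 12 starts, 3 belonged to CCL3 and 2 of those windows share the same match. The main start of CCL3 and that of CCL3L3 show how alike the copies are. Their 250 upstream bases were identical at 234 of 244 aligned positions, or 95.9%, with 12 gap positions not counted. Both hold the motif, in capitals, with its first letter at -138 in CCL3 and -140 in CCL3L3.
CCL3L3 upstream of its start, chr17:36196759-36197008, minus strand: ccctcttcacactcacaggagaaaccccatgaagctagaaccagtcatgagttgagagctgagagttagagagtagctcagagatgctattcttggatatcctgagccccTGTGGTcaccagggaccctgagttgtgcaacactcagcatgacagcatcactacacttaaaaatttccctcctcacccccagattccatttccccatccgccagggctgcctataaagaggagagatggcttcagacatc
CCL3 upstream of its start, chr17:36090144-36090393, minus strand: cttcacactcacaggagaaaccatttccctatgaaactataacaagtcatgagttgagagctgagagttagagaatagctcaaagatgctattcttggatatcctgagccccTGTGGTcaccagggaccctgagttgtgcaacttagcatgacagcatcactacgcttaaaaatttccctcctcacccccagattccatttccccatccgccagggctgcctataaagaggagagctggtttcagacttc
CCL3, with its nearest summit 25009 bp away, had no peak within 5 kb, unlike CCL3L3. Since the place of the CCL3L3 peak is uncertain, as said above, this difference between the copies is uncertain too. The other matches are given as 30 bases around the motif, written along the gene with the match in capitals and its position counted from the start. ACCACA and also ACCGCA are the motif as it reads on the opposite strand. For CCL24 the start is a second one inside the gene. For CCL3 the match is the one shared by its other starts, at -83 from one and -238 from the other.
CXCL9, chr4:76007592-76007621, minus strand, first letter of the match at -100: cacaatcaagttTGTGGTcaatttagttag
CCL3, chr17:36089919-36089948, minus strand, first letter of the match at -83: ggccatggttagACCACAtcaatcttttct
CXCL14, chr5:135579086-135579115, minus strand, first letter of the match at -112: tctcctcccctcACCACAttgagaaatctc
CCL26, chr7:75789787-75789816, minus strand, first letter of the match at -58: ggtcccaggggtACCGCAgatcccagggac
CCL24, chr7:75813887-75813916, minus strand, first letter of the match at -98: tcctctttccagACCACAggcctcaggatt
CCL19, chr9:34691404-34691433, minus strand, first letter of the match at -145: aaggaaagggcaACCGCAgggggaagaagg
XCL2, chr1:168544184-168544213, minus strand, first letter of the match at -204: attgacacattaACCACAgacaaaggggta
XCL2, chr1:168544041-168544070, minus strand, first letter of the match at -61: aagccccctctcACCACAggaagtgcactg
CCL7, chr17:34270002-34270031, plus strand, first letter of the match at -207: tagattacatacTGTGGTcttcctctacat
CCL1, chr17:34363342-34363371, minus strand, first letter of the match at -126: ggaaaggagtttACCACAtggtcgctgggt
CCL7 and CCL1 hold the motif although their nearest summits are 758.4 and 700.4 kb away. A match is a description of letters only, and the sequence under the peaks themselves was not analysed here.

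Chromosome 4 carried 10 chemokine genes, and 2 of them had a peak within 5 kb and 6 within 50 kb, beside 24.9% and 52.4% of all protein-coding genes. Weighted to the lengths of all 43 chemokine genes, these shares were 12.7% and 44.8%. The array from CXCL8 to CXCL2 spanned 358.6 kb, from 73740569 to 74099195, and held 6 members, all of them neutrophil attractants that act on CXCR2. It held 4 summits, or 11.2 per Mb (exact 95% Poisson interval 3.04 to 28.6), beside 3.18 per Mb over the chromosome. The interval includes the 3.18, so 4 summits are too few to tell the array from the chromosome. None of the 4 had a fold enrichment of 5 or more. Besides the peak at CXCL6, they lay together between CXCL1 and CXCL5. The tallest of these, 29953 bp past CXCL1, had 28 tags (18.6 to 40.5) and 3.90-fold, over an input level 2.92 times the genome background. The others had 13 and 14 tags, with 4.37-fold and 4.68-fold. CXCL1 therefore had 4 peaks within 50 kb and CXCL6 had 1.

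CXCL8, the best-known neutrophil attractant of epithelia, and CXCL5, CXCL3 and CXCL2 had no peak within 50 kb. Their nearest summits were 78.8, 78.3, 119.3 and 168.9 kb away. The summit nearest to CXCL8 had 44 tags and a 12.8-fold enrichment and lay outside the array, whose own summits reached at most 28 tags. CXCL5, CXCL3 and CXCL2 stood together in a stretch of 350.8 kb without a summit. The median distance between neighboring summits on this chromosome was 145.7 kb, and this stretch ranked 168 of 604 by length.

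**Figure D3:**
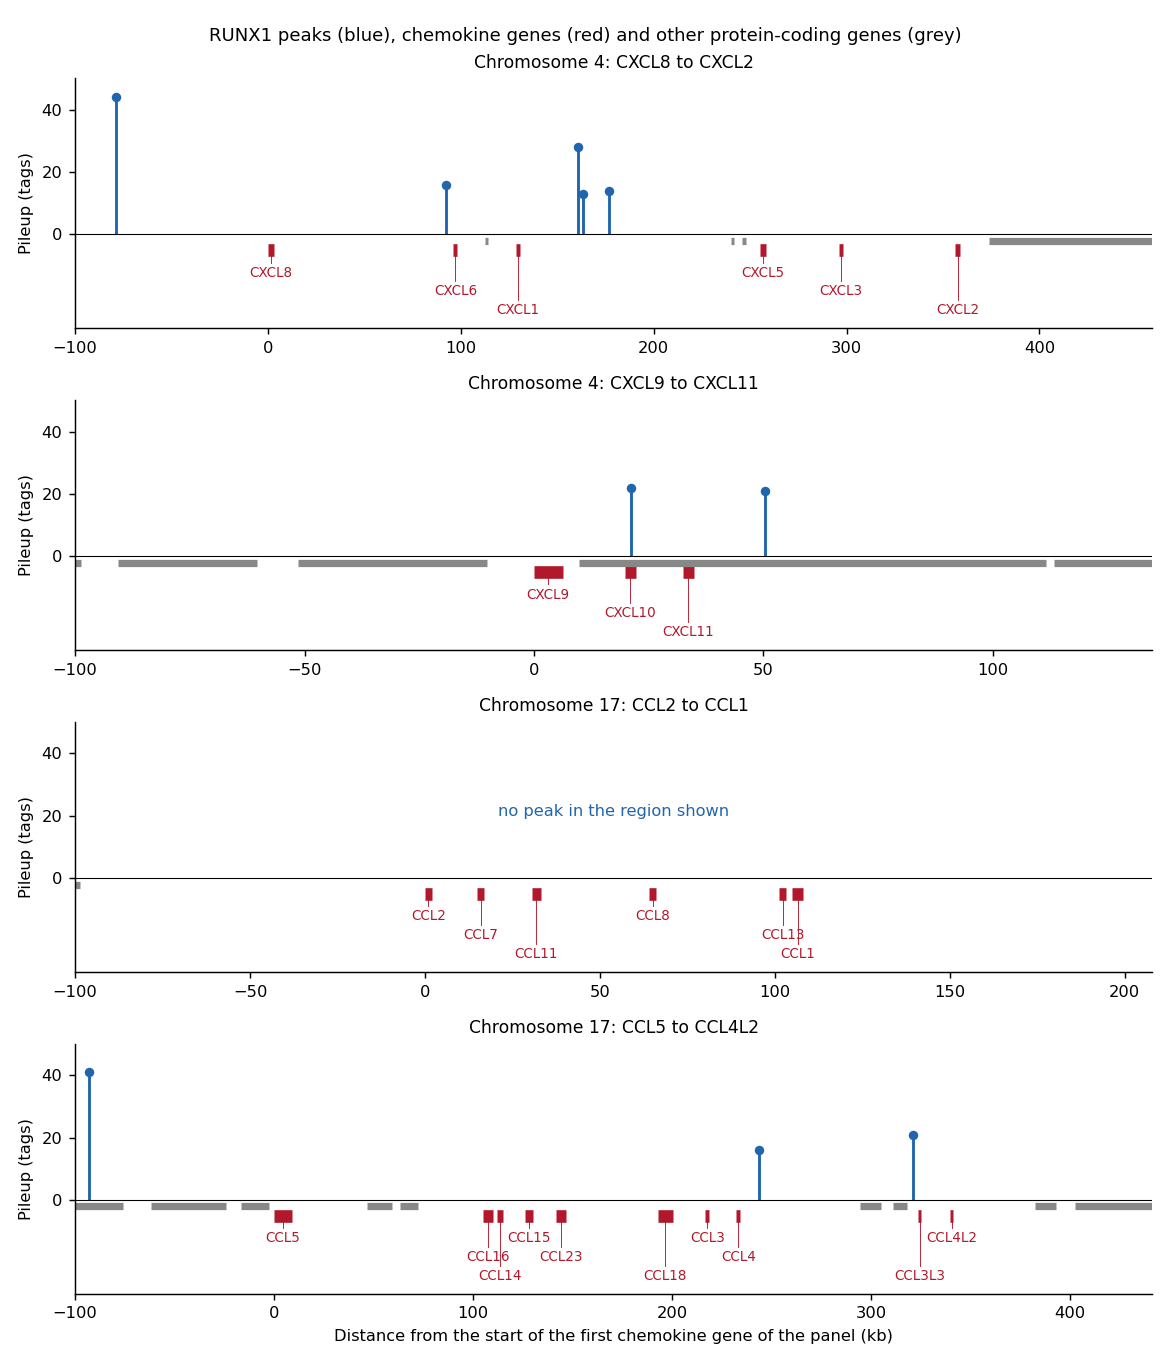
Maps of the arrays CXCL8 to CXCL2 and CXCL9 to CXCL11 on chromosome 4, and CCL2 to CCL1 and CCL5 to CCL4L2 on chromosome 17, each with 100 kb on either side. The horizontal axis is the distance from the start of the first chemokine gene (kb), blue lines are peak summits with their pileup in tags, red bars are chemokine genes and grey bars other protein-coding genes. The map of CCL2 to CCL1 holds no summit, and that of CXCL8 to CXCL2 holds 4 within the array, at 13 to 28 tags.

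Chromosome 17 carried 17 of the genes, and 1 had a peak within 5 kb and 5 within 50 kb, beside the same 24.9% and 52.4%. Weighted to the lengths of all 43 chemokine genes, these shares were 12.7% and 44.8%. Over the 1157 protein-coding genes of this chromosome the median distance to a summit was 34.6 kb. The array from CCL2 to CCL1 held 6 genes in 107.9 kb, from 34255285 to 34363233. They are CCL2, CCL7, CCL8 and CCL13, the monocyte attractants that act on CCR2, the eosinophil attractant CCL11, and CCL1, a ligand of CCR8. It held 0 summits, which allows up to 34.2 per Mb, so that the array alone is too short to be told from the 7.15 per Mb of the chromosome. The nearest summits were 743.4 kb away on the side of lower coordinates, inside ASIC2, and 700.4 kb away on the other side, inside RFFL. All 6 genes were thus 700.4 to 773.9 kb from a summit. The stretch between these summits measured 1552 kb, whereas the median on this chromosome was 50.9 kb. It was the third longest of 594, and it held 10 protein-coding genes, more than any of the other 4 among the longest 5, which held 1 to 7. Of the protein-coding genes on chromosome 17, 11 were more than 500 kb from a summit, and 6 of these were the chemokine genes of this array. CXCL12, a ligand of CXCR4 that retains stem cells in bone marrow, was the other member so far away, at 613.5 kb on chromosome 10. Together they made 7 of 43 genes, or 16.3%, beside 5.00% of all protein-coding genes. Since 6 of them lie in 1 stretch, they are not 6 separate observations.

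The second array, CCL5 to CCL4L2, held 10 chemokine genes in 341.4 kb, from 35871491 to 36212873. It had 2 summits, or 5.86 per Mb (0.709 to 21.2), close to the 7.15 of the chromosome. Besides the peak at CCL3L3, which was 18.5 kb from CCL4L2, a weak one of 16 tags (9.15 to 25.98) and 3.59-fold lay 9.54 kb from CCL4. It was 25009 bp from CCL3 and 43.1 kb from CCL18. The other genes, CCL5, CCL16, CCL14, CCL15 and CCL23, had their nearest summits 93.1 to 133.7 kb away. CCL5, which attracts T cells and monocytes, was nearest to a peak of 41 tags with an 11.3-fold enrichment inside MMP28, an extracellular protease gene. CXCL16, the remaining gene on this chromosome, was 54954 bp from a summit inside PELP1.

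**Figure D4:**
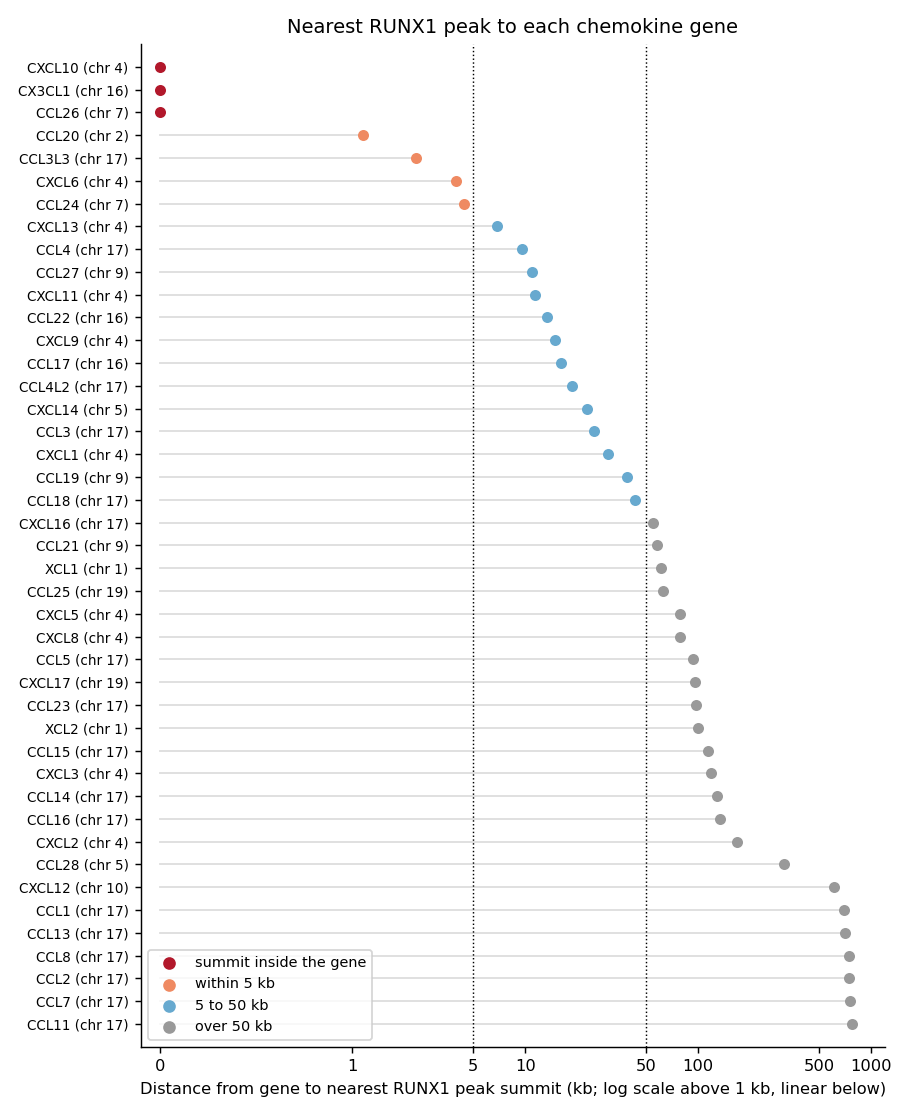
Distance (kb) from each of the 43 chemokine genes to its nearest RUNX1 peak summit, with the chromosome in brackets; the axis is linear up to 1 kb and on a log scale beyond, and dotted lines mark 5 and 50 kb. Summits lie inside CXCL10, CX3CL1 and CCL26, and the 6 genes of the CCL2 to CCL1 array sit at the far end, at 700.4 to 773.9 kb.

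Several members elsewhere had at most distal peaks. CCL27, made by skin keratinocytes, and CCL19, a ligand of CCR7, shared 2 peaks inside GALT on chromosome 9, the nearer 10.9 and 38.6 kb away. These had 17 and 19 tags, at 4.79-fold and 6.25-fold. CCL21, the other ligand of CCR7, was 58.0 kb from the same place. CXCL14, which is expressed in many epithelia, was 22.6 kb from a peak of 21 tags (13.0 to 32.1) and 5.83-fold that lay nearer to NEUROG1. The mucosal genes CCL25, CCL28 and CXCL17 were 62.9, 313.8 and 96.1 kb away, and XCL1 and XCL2 61.3 and 99.4 kb. Over the 43 genes the median distance was 58.0 kb (quartiles 12.3 and 123.9 kb), beside 44.8 kb over all protein-coding genes.

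Of the 22 chemokine receptor genes, 3 had a summit within 5 kb, or 13.6%, beside 24.9% of all protein-coding genes. Within 50 kb, 12 had one, or 54.5%, beside 52.4% of all. At equal gene length 3.75 would have had one within 5 kb and 10.6 within 50 kb. XCR1, the receptor of XCL1 and XCL2 on cross-presenting dendritic cells, held 2 summits, with 30 tags (20.2 to 42.8, 8.25-fold) and 20 tags (12.2 to 30.9, 3.22-fold). The latter stood over an input level 2.50 times the genome background. CXCR3 had 1 summit inside, of 17 tags and 5.62-fold, and 1 of 14 tags and 3.99-fold 70 bp outside it. CCR10, the receptor of CCL27 and CCL28, had 1 of 24 tags (15.4 to 35.7) and 7.81-fold, 1333 bp away. CXCR3 and its ligand CXCL10 both had a peak within 5 kb. By contrast, CCR6 and CX3CR1, the receptors of CCL20 and CX3CL1, were 72.6 and 212.3 kb from a summit. CCR3 was 31.1 kb away. MCF10A is an epithelial line, and expression of these genes was not analysed here.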

How the data were processed

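The authors aligned reads (Bowtie2 and hg38, per the submitters' processing notes) and ran MACS 2.1.2 to compare the ChIP library with the input (q-value of 0.05 or less). Tags were extended to 74 bp, and 1 tag was kept per position and strand, per the file headers. In the deposited list the pileup is a signal, extended ChIP tags at the summit. The fold is a deposited ratio, (pileup + 1) over (local background + 1), and q-values were deposited as −log10. All describe the pair of libraries, with no replicate.

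The input level is the local background of the peak caller, recovered from pileup and fold enrichment and divided by the genome background of 2.20 tags. It is not a direct count of input tags at the summit. Genes came from the RefSeq table of GRCh38.p14, the same build as hg38. Of its protein-coding genes, 190 with no place in the ordered rows of a main chromosome were left out. The members and lists were chosen with earlier results of these data known. Symbols with a copy suffix (CCL3L3) were counted as members. Arrays are runs of at least 3 members under 500 kb apart. Chromosome length was the last listed gene or peak end.

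Each member with a summit within 5 kb was named with its values, each with one 5 to 50 kb away with its distance, receptors with one within 5 kb, the 3 genes farthest away (CCL11, CCL7 and CCL2), and the rest by array. The settings varied were q (0.01), the fold (5 or more), overlap of any base, merging within 1 kb, gene bodies, 10 kb, symbols without a suffix, and 2 Mb or 50 kb for arrays. Peak assignment was checked on artificial peaks at known distances. Upstream bases were aligned with Biopython 1.88, and intervals came from SciPy 1.17.1 under Python 3.11.15.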

Additional observations from a re-analysis of the deposited data

How the results depend on the processing

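Of 24 alternatives over the counts of genes and peaks, 20 stayed within 1.5 times the count and 4 did not. Of 18 over summits per Mb, 17 stayed within the counting interval, but with 0 to 4 summits an array these intervals are so wide that this says little. Joining arrays under 2 Mb apart took CXCL9 to CXCL11 from 28.7 to 6.72 per Mb and CXCL8 to CXCL2 from 11.2 to 6.72, and adding 50 kb took CCL27 to CCL21 from 0 to 13.5. Peaks at single genes kept their number in 22 of 28 alternatives, or changed by at most 1.5 times, and moved in 6. These were CCL20 and CX3CL1, from 2 to 1 at 5-fold and after merging, and CCL26 and CXCL6, from 1 to 0 at 5-fold. With gene bodies alone, chemokine genes with a peak fell from 7 to 3 and their distinct peaks from 9 to 4, by construction of the narrower window. Requiring 5-fold or more kept 6881 of 13591 peaks. Then the distinct peaks fell to 5, the genes to 5 as CXCL6 and CCL26 lost theirs, and the array CXCL8 to CXCL2 from 11.2 to 0 summits per Mb. At 50 kb instead of 5 kb, 12 receptor genes instead of 3 counted. The same 7 genes had a peak at a q limit of 0.01, by overlap of any base and after merging. No paired analysis was possible because ChIP and input each have a single library and nothing was replicated. The motif under peaks was not run, since no genome sequence was used here. The list holds peaks only, so a weaker signal at the other genes cannot be seen.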

Other observations

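Chemokine genes of the chromosome 4 array that keep an older symbol are no members by symbol. PF4 and PPBP, both stored in platelets, were 63.5 and 69.1 kb from the nearest summit. PF4V1, a variant copy of PF4, was 20.6 kb from the peak at CXCL6 and had 3 summits within 50 kb. None of the 3 had one within 5 kb. Of the 26 peaks within 50 kb of a member, 13 were shared by 2 or more members, and 6 had their summit inside another protein-coding gene and no member.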
